A study of Mus musculus with 6 samples.

Results

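The calcium/calmodulin-dependent protein kinases (CaM kinases) were examined in bulk RNA-Seq of mouse lateral cortex at embryonic day 12.5. The members were 10 listed genes of 17068 in the deposited count table: Camk2a, Camk2b, Camk2d, Camk2g, Camk1, Camk1d, Camk4, Camkk1, Camkk2 and Camkv. All 10 were in the table, which the authors had already filtered for low counts. They were chosen by name with the differences between the groups in these libraries already known, namely that their estimates moved with single controls, so the values below are a description and nothing is supported with them. The samples were 4 Cre-negative controls and 2 embryos labelled Foxp1cKO, all female and of strain c57/bl6. By genotype, controls 1, 2 and 4 were Foxp1 fl/+, control 3 was Foxp1 fl/fl, and both libraries labelled Foxp1cKO were Foxp1 fl/fl;Emx1Cre, so all 6 embryos carried a floxed allele. Emx1Cre recombines in progenitors of the dorsal telencephalon and their descendants, and cells that enter the cortex from elsewhere, such as interneurons and vessels, keep the gene.

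CaM kinases are serine/threonine kinases that are switched on when calcium-loaded calmodulin binds them. CaMKII, encoded by the Camk2 genes, assembles into large rings whose subunits can phosphorylate each other, and in the mature forebrain it is a major component of excitatory synapses. CaMKI and CaMKIV are monomeric and need a further phosphate from a CaMK kinase, CaMKK1 or CaMKK2, for full activity. CaMKV resembles these kinases but lacks catalytic activity.

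The smallest library held 50076008 reads on genes and the largest 78346979. Foxp1, the targeted gene, had 59.7, 60.8, 71.2 and 79.1 CPM (counts scaled to a common library size with TMM) in controls 1 to 4, and 83.2 and 76.8 CPM in the libraries labelled Foxp1cKO. Its whole-gene count was thus not lower under that label. The floxed exons could not be counted apart from the rest without the reads, so this count does not check the deletion. The paper cites its authors' earlier work for recombination and loss of Foxp1 protein before this stage. Each direction given below rests on the labels. The neuronal and dorsal markers Neurod6, Tbr1 and Pax6 had at least 254, 251 and 171 CPM in every library. The 17 of 18 listed neuron markers analysed here summed to 5080, 6085, 6717 and 3692 CPM in controls 1 to 4, and to 4945 and 5091 CPM in the libraries labelled Foxp1cKO. Controls 3 and 4 were thus the extremes of the neuron markers and held both Foxp1cKO libraries between them. The 10 ventral telencephalon and interneuron markers summed to 242, 375, 910 and 276 CPM in the controls, and to 559 and 412 CPM in the libraries labelled Foxp1cKO. The 8 red cell markers summed to between 1090 and 3429 CPM in the controls, with control 4 the highest, and to 3760 and 4021 CPM under the Foxp1cKO label. The part of any of these in the results below was not tested. In bulk tissue, fewer cells of a type and less RNA per cell cannot be told apart.

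Camk1d was the most abundant member per unit of exon length, and Camk2d the least. Scaled to the union of annotated exons, the control means ran from 37.2 ± 6.27 RPKM (the same scaled counts per kilobase of exon, SD, n = 4) for Camk1d through 17.7 ± 1.76 for Camk2g and 8.68 ± 1.85 for Camk2a, to 1.37 ± 0.462 for Camk2d. Camk1d exceeded Camk2g and Camk2g exceeded Camk2a in 6 of 6 libraries, without overlap among the controls. Camkk2, at 6.53 ± 0.933 RPKM (SD, n = 4), Camkv, at 6.26 ± 1.41, and Camk2b, at 5.49 ± 2.46, overlapped and cannot be ordered on this length. Camk2a also overlapped Camkk2 among the controls, but was higher in 6 of 6 libraries. The ranges of Camk1, Camk4 and Camkk1 overlapped as well, with control means of 3.68, 3.52 and 2.96 RPKM. Of these, Camk1 was above Camkk1 in every library, whereas Camk4 could not be placed. Camk2d was below Camkk1 in 6 of 6 libraries, but its union of exons, 22493 bases, is far longer than its longest protein-coding transcript, 5524 bases. Scaled to the longest protein-coding transcript of each gene, Camk2d was the member ranked 8 of 10 and Camkk1 was the lowest, whereas Camk1d and Camk2g stayed the highest. Camk1 moved most, from rank 7 to rank 3, at 14.7 ± 0.726 RPKM (SD, n = 4). It no longer overlapped Camk4, at 4.22 ± 1.78, or Camkk1, at 3.22 ± 0.667. It did overlap Camkk2, at 14.7 ± 2.10, Camk2a, at 13.0 ± 2.78, and Camk2b, at 12.4 ± 5.59, so ranks 3 to 6 were not resolved. Camk2a moved from rank 3 to rank 5, so the order between the highest pair and the lowest members depends on the length used.

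No member passed the threshold between the groups. The number past an adjusted p of 0.05 was 0 of 10 with edgeR's quasi-likelihood test, against 0.152% of all genes, and it was also 0 with DESeq2 and with limma. At an unadjusted p under 0.05 it was 1, Camk2a, against 13.0% of all genes. Of these estimates, 6 were positive and 4 negative, with a median log2 fold change of 0.046, beside -0.0044 over all 17068 genes. When the Foxp1cKO mean was set against controls 1, 2, 3 and 4 in turn, the median of the members' differences was -0.018, -0.054, -0.21 and 0.40 on the log2 CPM scale. The typical member was thus higher in the libraries labelled Foxp1cKO than in control 4 and lower than in control 3.

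**Figure D1:**
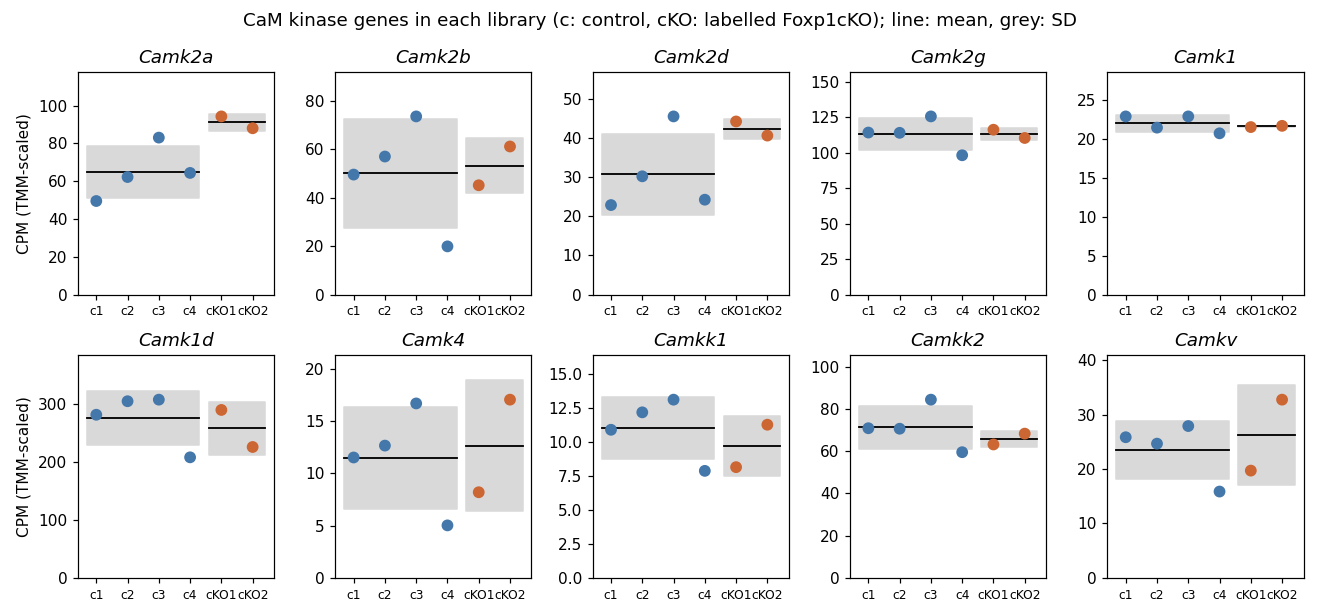
CPM of the 10 CaM kinase genes in controls 1 to 4 (c1 to c4, blue) and in both libraries labelled Foxp1cKO (cKO1 and cKO2, orange), with the group mean (line) and SD (grey band), each axis starting at 0. Control 3 is the highest control for all 10 genes and control 4 the lowest for 8, and only for Camk2a do both orange points lie above every blue one.

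The CaMKII genes fell into different patterns. Camk2a encodes the alpha subunit (ENSMUSG00000024617.16, chromosome 18, 60925618 to 60988152, plus strand). It had 49.5, 62.2, 83.1 and 64.4 CPM in controls 1 to 4, and 94.3 and 88.0 CPM in the libraries labelled Foxp1cKO. Both of these exceeded every control, an order that 11.5% of all genes showed. The groups did not overlap for 1 of 10 members, Camk2a, whereas in either direction this held for 24.6% of all genes. The log2 fold change was 0.49 (SE 0.18), which did not pass the threshold (adjusted p = 0.346, edgeR). Against single controls the difference was 0.88, 0.55, 0.13 and 0.50, so it was positive against each but small against control 3.

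Camk2d encodes the delta subunit, which is widespread outside the brain (ENSMUSG00000053819.16, chromosome 3, 126596302 to 126846326, plus strand). It had 22.9, 30.3, 45.6 and 24.3 CPM in the controls, and 44.3 and 40.7 CPM in the libraries labelled Foxp1cKO. The groups overlapped through control 3 alone, which was above both. The log2 fold change of Camk2d was 0.47 (SE 0.27, adjusted p = 0.495, edgeR), and it was 0.70 without control 3. The order of its levels over all 6 libraries was the same as that of the summed ventral markers, which held for 87 of 13212 genes with a mean of at least 100 counts (0.658%) and for no other member. What the ventral markers contribute to the Camk2d values was not tested.

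Camk2b encodes the beta subunit, which also binds actin (ENSMUSG00000057897.14, chromosome 11, 5969644 to 6066362, minus strand). Its CPM was 49.6, 57.1, 73.7 and 19.9 in controls 1 to 4, and 45.2 and 61.2 in the libraries labelled Foxp1cKO. Control 4 was far below the rest and control 3 above, a ratio of 3.70 that exceeded the same ratio of 97.9% of the 13212 genes. The means were 50.1 ± 22.5 CPM (SD, n = 4) and 53.2 ± 11.3 CPM (SD, n = 2), which differed by less than the SD of either. Its log2 fold change was 0.089 (SE 0.44, adjusted p = 0.955, edgeR). Against single controls, the difference was 0.085, -0.12, -0.49 and 1.40, so a large positive value arose against control 4 and against no other. Without control 4 the fold change of Camk2b was -0.18, and without control 3 it was 0.32. The paper, whose DESeq2 fit also modelled litter, listed Camk2b among its top upregulated genes, with a fold change far above the estimate here. That fit could not be repeated here because the labels give no litter, and the part of litter in the difference was not tested.

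Camk2g encodes the gamma subunit (ENSMUSG00000021820.18, chromosome 14, 20734875 to 20794088, minus strand) and was the steadiest CaMKII gene. It had 114, 114, 126 and 98.2 CPM in the controls, and 116 and 110 CPM in the libraries labelled Foxp1cKO. The estimate was 0.0037 (SE 0.10), and the Foxp1cKO libraries lay inside the range of the controls.

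The sequence before the start of Camk2b, the member with the widest spread among the controls, is shown beside that of Camk2d, another CaMKII gene of a different pattern. Both are from RefSeq (GRCm38.p6), cover the 200 bases before the RefSeq start on the coding strand, and have each CG dinucleotide in capitals. Both stretches lie inside the genes as GENCODE M21 bounds them, since its outermost start is further upstream in each.
Camk2b, chr11:6065749-6065948, minus strand: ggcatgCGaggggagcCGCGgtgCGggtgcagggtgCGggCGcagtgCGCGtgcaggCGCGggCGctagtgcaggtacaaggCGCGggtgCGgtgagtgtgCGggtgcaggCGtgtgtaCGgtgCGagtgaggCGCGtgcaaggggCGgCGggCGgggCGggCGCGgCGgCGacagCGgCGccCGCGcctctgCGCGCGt
Camk2d, chr3:126596751-126596950, plus strand: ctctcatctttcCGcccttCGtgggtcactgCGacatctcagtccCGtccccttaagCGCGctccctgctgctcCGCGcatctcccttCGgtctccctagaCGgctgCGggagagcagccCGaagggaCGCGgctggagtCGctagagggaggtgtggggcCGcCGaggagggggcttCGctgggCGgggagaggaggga
The Camk2b stretch held 35 CG dinucleotides, a number reached by 0.944% of 27025 promoters over the same length, and the Camk2d stretch held 19, reached by 14.3%. The median over all promoters was 5. For 7 of the 10 members a promoter was matched, and their numbers ran from 11 to 35. The forkhead core TGTTTAC, searched on both strands in windows of 300 bases, was found in 0 of these 7 windows and in 3.55% of all promoters. The proneural letters CAGATG were found in Camk1 alone, against 17.2% of all promoters, and as no core was found no match overlapped another. These matches describe letters in a window and nothing about binding.

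The composition of CaMKII differed between libraries as well. Camk2g contributed the largest share of the summed CaMKII RPKM in each library, from 45.9% to 57.7%. The share of Camk2a was 21.4%, 24.7%, 27.2% and 31.7% in controls 1 to 4, and 33.5% and 31.4% in the libraries labelled Foxp1cKO. It was thus as high in control 4 as in Foxp1cKO 2. For Camk2b the share was 17.6%, 18.5% and 19.8% in controls 1 to 3 but 8.02% in control 4, and 13.1% and 17.9% under the Foxp1cKO label. The summed level was 30.9, 33.8, 40.9 and 27.2 RPKM in the controls, and 37.7 and 37.6 RPKM in the libraries labelled Foxp1cKO, inside the range of the controls. With the longest coding transcript as length, the share of Camk2d ran from 7.24% to 10.7% in the controls instead of 3.29% to 4.96%, and Camk2g remained the largest, at 42.5% to 54.3%.

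**Figure D2:**
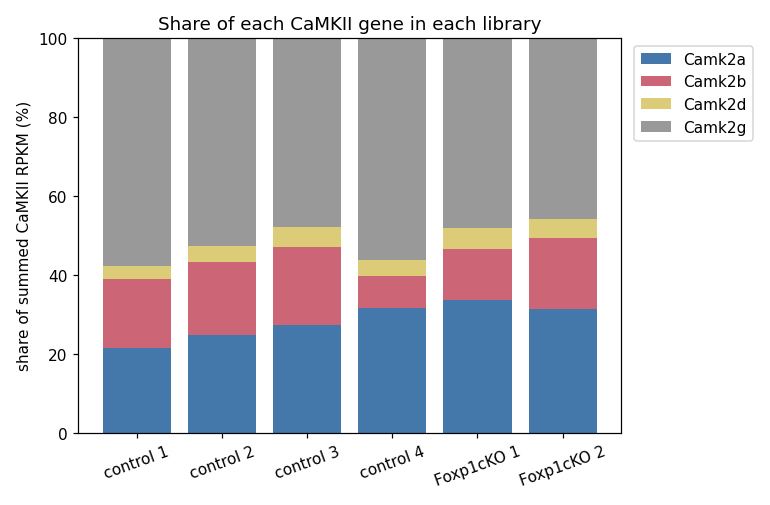
Share of each CaMKII gene in the summed CaMKII RPKM (y axis, percent, union of exons as length) in each of the 6 libraries (x axis). Camk2g is the largest block in each bar, and the Camk2b block narrows to 8.02% in control 4.

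Of the monomeric kinases, Camk1 varied least and Camk4 most. Camk1 encodes CaMKI alpha (ENSMUSG00000030272.15, chromosome 6, 113334124 to 113343984, minus strand). It had 22.9, 21.5, 22.9 and 20.7 CPM in the controls, and 21.5 and 21.7 CPM in the libraries labelled Foxp1cKO. The highest control was 1.10 times the lowest, a smaller ratio than in most genes. Its log2 fold change was -0.026 (SE 0.092). Camk1 shares 232 exon bases with Ogg1 on the opposite strand, and the strand setting of the counting is not given in the sources used here, so its count is uncertain to that extent.

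Camk1d encodes CaMKI delta (ENSMUSG00000039145.16, chromosome 2, 5293457 to 5714515, minus strand). Its values were 282, 305, 308 and 208 CPM in the controls, and 290 and 226 CPM in the libraries labelled Foxp1cKO. Control 4 and Foxp1cKO 2 were the low libraries, so each group held values at both ends. The fold change was -0.096 (SE 0.18), and it turned to 0.054 without Foxp1cKO 2.

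Camk4 encodes CaMKIV, which acts largely in the nucleus and phosphorylates CREB (ENSMUSG00000038128.6, chromosome 18, 32934931 to 33191228, plus strand). It had 11.5, 12.7, 16.7 and 5.02 CPM in controls 1 to 4, and 8.19 and 17.05 CPM in the libraries labelled Foxp1cKO. Foxp1cKO 2 was above every control and Foxp1cKO 1 below all but control 4. The libraries labelled Foxp1cKO differed by a factor of 2.08, where the median gene differed by 1.09. Its log2 fold change was 0.14 (SE 0.47, adjusted p = 0.929, edgeR), with differences of 0.037, -0.098, -0.50 and 1.23 from single controls. It became 0.57 without Foxp1cKO 1, -0.51 without Foxp1cKO 2 and -0.11 without control 4. Camk4 shares 72 exon bases with the antisense gene 2310026I22Rik, which carries the same uncertainty as for Camk1.

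For both upstream kinases the groups overlapped and the estimates were negative. Camkk1 (ENSMUSG00000020785.17, chromosome 11, 73019008 to 73042073, plus strand) had 10.9, 12.2, 13.1 and 7.87 CPM in the controls, and 8.15 and 11.3 CPM in the libraries labelled Foxp1cKO. Foxp1cKO 1 was close to control 4, the lowest control. The fold change of Camkk1 was -0.18 (SE 0.24). Camkk2, whose product also activates AMPK (ENSMUSG00000029471.13, chromosome 5, 122731170 to 122779409, minus strand), had 70.9, 70.6, 84.4 and 59.5 CPM in the controls. In the libraries labelled Foxp1cKO it had 63.2 and 68.3 CPM, below 3 of the 4 controls and above control 4. Its log2 fold change of -0.12 (SE 0.14) was smaller than the SE and stayed negative when each library was left out, between -0.20 and -0.042.

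Camkv, the pseudokinase gene (ENSMUSG00000032936.13, chromosome 9, 107935674 to 107949691, plus strand), had 25.9, 24.7, 27.9 and 15.9 CPM in the controls. The libraries labelled Foxp1cKO had 19.7 and 32.8 CPM, and so straddled the 3 higher controls, as for Camk4. The fold change was 0.16 (SE 0.27, adjusted p = 0.842, edgeR). Against control 4 the difference was 0.68, and against the others it lay between -0.13 and 0.043. Without control 4 the fold change was 0.0075, without Foxp1cKO 1 it was 0.48 and without Foxp1cKO 2 it was -0.28.

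**Figure D3:**
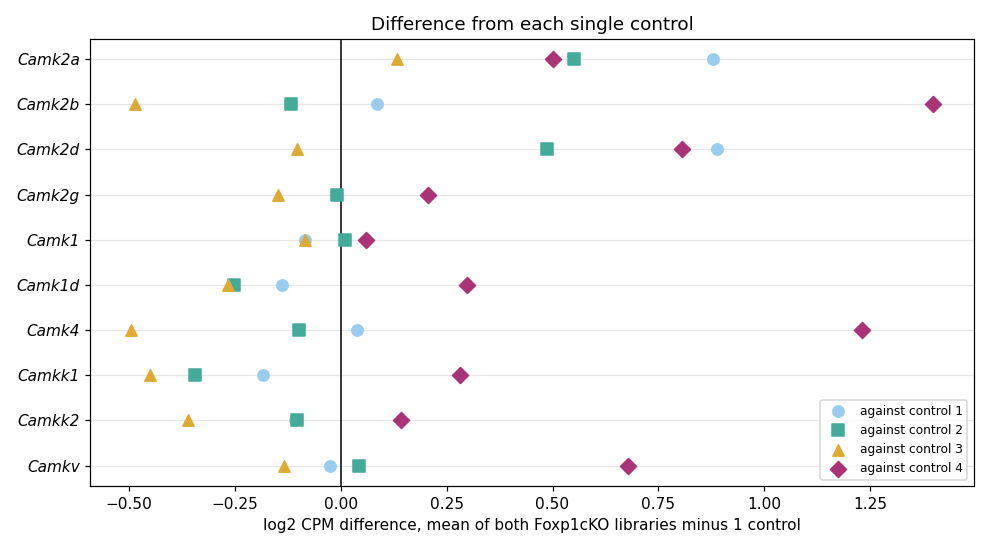
Difference in log2 CPM between the mean of both libraries labelled Foxp1cKO and each control (x axis; 1 symbol per control) for the 10 members (y axis). For Camk2b and Camk4 the symbols of control 4 lie at 1.40 and 1.23, apart from the other controls, while Camk2a is positive against all 4.

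Control 3 was the highest control for 10 of 10 members, level with control 1 in Camk1, and control 4 the lowest for 8 of 10, all but Camk2a and Camk2d. Over the 13212 genes with a mean of at least 100 counts, these positions were held by 32.5% and 32.6%, and both together by 21.6%. Camk2b, Camk1d, Camk4 and Camkk1 had the controls in the same order as the summed neuron markers, which held for 15.6% of these genes. The median ratio of the highest to the lowest control was 1.67 over the members, and 9 of 10 were above the median of the genes. Of these, Camk2g was level with it, at 1.279 beside 1.277. The median ratio was 1.99 over the neuron markers and 1.78 over the 13 other CaMK kinases. It lay between 1.12 and 2.07 over the pathway lists. As the members were chosen with such shifts known, these positions and ratios are a description only. Counting error, 0.729% to 3.65% of the mean over the members, was below the SD among the controls for each member. The gap was narrow for Camk1, at 2.57% beside 4.93% of the mean, and wide for Camk2b, at 1.72% beside 44.9%.

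When each member was divided by the summed neuron markers of its library, a scale added after the data were examined, the spread among the controls narrowed for 7 members. The ratio of the highest to the lowest control went from 1.67 to 1.10 for Camkk1, from 1.76 to 1.26 for Camkv, from 3.70 to 2.03 for Camk2b and from 3.33 to 1.83 for Camk4. It went the other way for Camk1, from 1.10 to 1.65, for Camk2g, from 1.28 to 1.42, and for Camk2a, from 1.68 to 1.79. On that scale, Camk2a in control 4 stood at 17.4 per 1000 CPM of neuron markers, between the libraries labelled Foxp1cKO at 19.1 and 17.3, so the groups overlapped. For Camk2d they did not, at 4.51 to 6.79 in the controls and 8.96 and 7.99 under the Foxp1cKO label. The share of all genes whose spread narrowed, or whose groups separated, on that scale was not computed. The divisor itself was highest in control 3 and lowest in control 4, as held for 21.6% of the 13212 genes. Genes with these controls at the ends can narrow by arithmetic alone, so the values on this scale are not a result about the members. With edgeR scaled to the neuron markers, 0 of 10 members passed, beside 29 of all 17068 genes. Of the members' estimates 7 were positive, and that of Camk2d was 0.57 (SE 0.30).

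**Figure D4:**
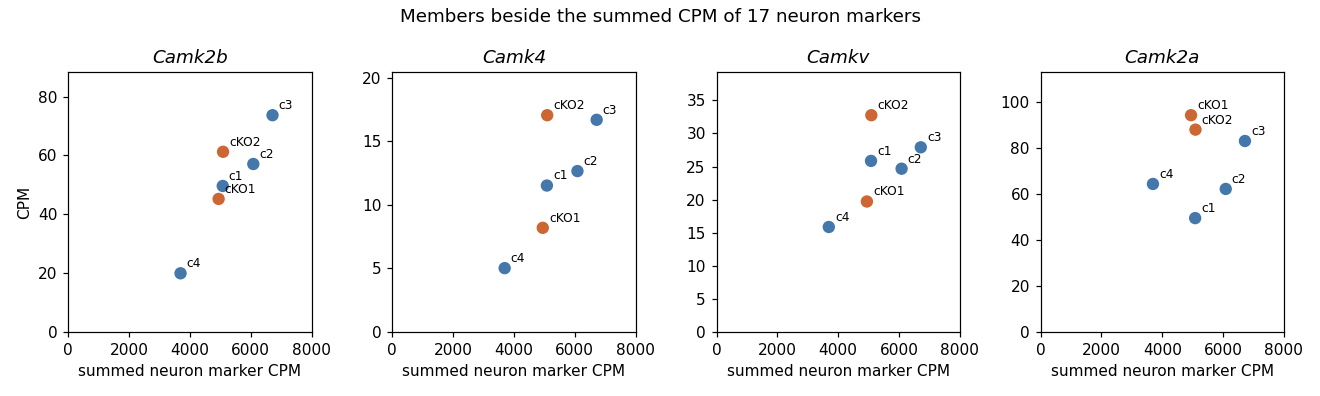
CPM of Camk2b, Camk4, Camkv and Camk2a (y axes) against the summed CPM of 17 neuron markers (x axis) in the 4 controls (blue) and both libraries labelled Foxp1cKO (orange). Control 4 is at the low end of both axes for the first 3 genes, whereas both orange points of Camk2a lie above control 3 at a lower neuron marker sum.

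Leaving out single libraries changed the sign of 6 of the 10 estimates. These were Camk2b, Camk2g, Camk1d, Camk4, Camkk1 and Camkv. Camk2a stayed between 0.36 and 0.62 and Camk2d between 0.33 and 0.70, both lowest without control 1 and highest without control 3. Without controls 3 and 4 together, a choice made after the data were examined, Camk2a was at 0.71 (SE 0.12, adjusted p = 0.0801, edgeR) and Camk2d at 0.68 (SE 0.14, adjusted p = 0.107, edgeR), so neither passed.

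**Figure D5:**
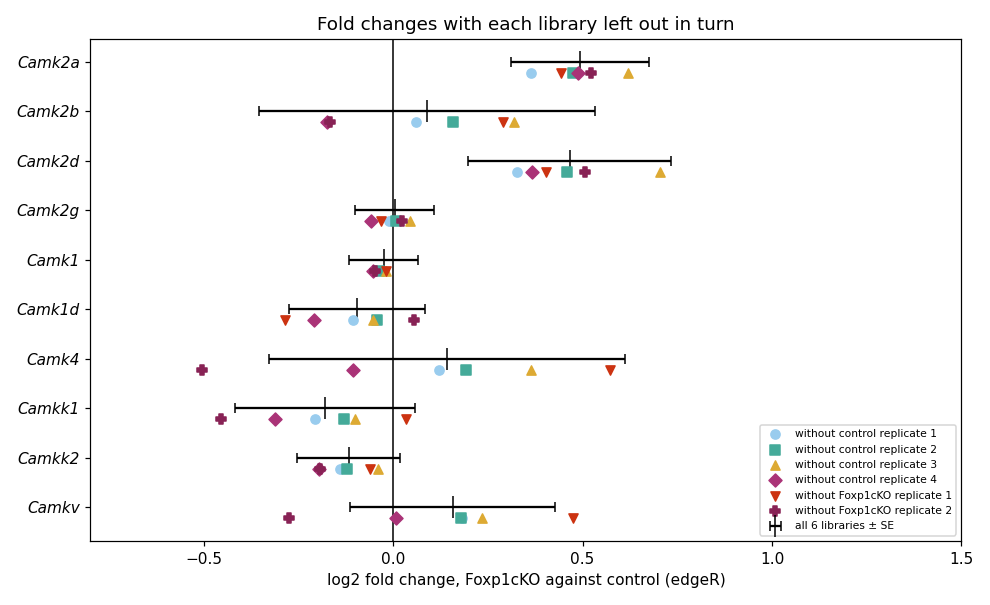
Log2 fold change of each member (x axis) from all 6 libraries with its SE (black) and without each library in turn (coloured symbols). The symbols of Camk4 run from -0.51 to 0.57 and cross 0, while those of Camk2a and Camk2d stay above 0.

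Camk2a, Camk2b and Camkv were compared with all other genes of at least 100 counts on average, by Pearson's r of log2 CPM over the 6 libraries, which share depth and tissue makeup. The 5 genes most like Camk2b were Grm5, Mpped1, Ankrd34a, Ptpre and Igsf3, with r from 0.990 to 0.992, and 156 of 13211 genes had an r of at least 0.95. For Camk2a they were Pcdh9, Drd3, Kcnk1, Cntn5 and Ilvbl (r from 0.986 to 0.994), and for Camkv Chst1, Ppp1r16b, Wwc1, Cabp1 and Stambpl1 (r from 0.988 to 0.994). With 6 points such values describe a likeness only. Between members, r was 0.926 for Camk2a and Camk2d, 0.974 for Camk4 and Camkv, and 0.272 for Camk2a and Camk2b.

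The partners of the kinases were described from lists by role. Of 91 listed genes, 90 were in the table. With edgeR 0 of them passed (0.152% of all genes did), and 16 had an unadjusted p under 0.05 (13.0% of all genes did). Positive estimates were found for 48 and negative ones for 42, with a median log2 fold change of 0.030. With limma the number past the threshold was again 0. DESeq2 called 4, against 2.97% of all genes: Nrgn, Ppm1f, Marcksl1 and Prkag1, of which the last 3 were chosen after their values were seen. Nrgn encodes neurogranin, which holds calmodulin at low calcium. It had 1.29, 1.93, 1.69 and 1.75 CPM in the controls, and 2.05 and 10.3 CPM in the libraries labelled Foxp1cKO, so its size rested on Foxp1cKO 2. Ppm1f, a phosphatase that acts on CaMKs, was at -0.38 with DESeq2 (adjusted p = 0.0452), Marcksl1 at -0.37 (adjusted p = 0.0240) and Prkag1, a subunit of AMPK, at -0.25 (adjusted p = 0.0352).

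Of the calmodulin genes, Calm2 and Calm3 encode the same protein. Calm2 had 568, 601, 566 and 557 CPM in the controls, and 506 and 526 CPM in the libraries labelled Foxp1cKO. Both were below every control, as for 13.1% of all genes, and the log2 fold change was -0.15 (SE 0.073, adjusted p = 0.431, edgeR). Calm3 had a fold change of -0.021 (SE 0.077), and its groups overlapped. Calm2 was below each single control, so it did not share the dependence on control 4 seen for Camk2b.

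Genes of the inhibitors and of calcineurin were also compared. Camk2n1, an inhibitor of CaMKII, had between 15.7 and 26.6 CPM in the controls, and 18.5 and 35.7 CPM in the libraries labelled Foxp1cKO, which differed more than the controls did. Its log2 fold change was 0.40 (SE 0.29), and that of Camk2n2, the related inhibitor, was -0.25 (SE 0.25). For calcineurin, the calmodulin-dependent phosphatase, the catalytic subunit genes Ppp3ca and Ppp3cb were at 0.31 (SE 0.14) and 0.11 (SE 0.071). Ppp3r1, which encodes the regulatory subunit, was at 0.41 (SE 0.16). Of the 8 calcineurin genes, 6 had positive estimates, and in 4 both libraries labelled Foxp1cKO exceeded every control, beside 11.5% of all genes. With edgeR 0 passed, beside 0.152% of all genes, with DESeq2 0, beside 2.97%, and with limma 0. An unadjusted p under 0.05 with edgeR was found for 3, beside 13.0% of all genes.

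None of the named targets passed the threshold with edgeR, beside 0.152% of all genes. Of the 16 listed target factors, 3 had an unadjusted p under 0.05 with edgeR, beside 13.0% of all genes. In 4 of them both libraries labelled Foxp1cKO exceeded every control, beside 11.5% of all genes. Creb1, a transcription factor phosphorylated by CaMKIV, had a log2 fold change of 0.088 (SE 0.068), and Mef2c, a factor released from histone deacetylases by CaMK activity, one of -0.22 (SE 0.30). Mef2c had 34.1 CPM in control 4 and between 65.2 and 78.3 CPM in the other controls, with 52.8 and 55.1 CPM under the Foxp1cKO label. It thus had the same low control as Camk2b. Prkaa1 and Prkaa2, the catalytic subunits of AMPK, were at 0.029 (SE 0.082) and -0.13 (SE 0.21).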

How the data were processed

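Bulk RNA-Seq of 6 libraries was analysed. The authors aligned paired-end reads to mm10 (Gencode version 17) with STAR and counted them per gene with HTSeq 0.9.1 in union mode. They deposited unnormalized counts of 17068 genes after a filter on low counts, and VST values on a log2-like scale that the authors made with DESeq2 (1.30.1 per the labels). The VST values were recovered from the counts with DESeq2 (blind VST), the largest deviation being 1.1e-10.

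Counts were tested in R 4.3.3 with edgeR 4.0.16 (quasi-likelihood, TMM, group alone, all genes, Benjamini-Hochberg adjustment, threshold 0.05). The labels give no litter, which the authors modelled. SE is the fold change over the root of F. Log2 CPM used a prior count of 2. Symbols, positions and exon lengths came from GENCODE M21 (GRCm38, as mm10). Identifiers matched with their version for 15605 genes and without it for 1442 (Camk4 among them), and 21 were not found. DESeq2 1.42.0, limma 3.58.1 on the VST values, other scalings, filters and left-out libraries were alternatives. On simulated counts of these 17068 genes, 4 against 2 libraries, edgeR called 142 genes. Among them were 130 of the 200 changed ones (81 of 100 changed by 2 and 49 of 100 by 1 on the log2 scale). DESeq2 called 190 genes, with 149 of the changed ones among them. Each gene was drawn independently around its own mean. Shifts shared by many genes, such as those of litter or tissue makeup, were thus not simulated, and these rates need not hold for the members.

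Members and lists were chosen with earlier results of these data known. Named genes are the members, Foxp1, partners picked by role (1 of them is not reported here), and the 5 genes most like Camk2a, Camk2b and Camkv. Marker lists cover neurons, radial glia, intermediate progenitors, ventral telencephalon, Cajal-Retzius cells, endothelium, microglia, red cells and mesenchyme. With 4 against 2 libraries an exact rank-sum test cannot give a two-sided p under 0.133. Replicates are separate embryos, and the chi-square per gene between replicate pairs was at least 25.9. Listed genes without a row (Calml4, Tubb3, Sox2, Itgam) were not analysed here.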

Additional observations from a re-analysis of the deposited data

How the results depend on the processing

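The number of members past the threshold was 0 in each of the 16 alternatives, while the number of all genes past it was 26 with edgeR, 507 with DESeq2, 63 without controls 3 and 4 together, and between 2 and 96 when 1 library was left out, the highest without control 4. The median of the members was -0.0062 without controls 3 and 4 together and between -0.11 and 0.16 with 1 library left out, negative without control 4 and without Foxp1cKO 2. Left-out libraries moved Camk2b between -0.18 and 0.32, Camk2g between -0.058 and 0.044, Camk1d between -0.29 and 0.054, Camk4 between -0.51 and 0.57, Camkk1 between -0.45 and 0.033, and Camkv between -0.28 and 0.48. Where a library labelled Foxp1cKO was left out, the lone library was assumed to vary like the controls. Without controls 3 and 4 together, Camk2b was at -0.0018 and Camk2g at -0.011. Scaled to the neuron markers, which moved the median of all genes to 0.029, Camk1 was at 0.015. Replicate numbers 1 and 2 occur in both groups but name different embryos, and libraries of number 1, and of number 2, correlated at -0.27 and 0.025 across genes after their group means were subtracted. In the fit with a replicate block, 0 genes passed (3027 at an unadjusted p under 0.05). The median of the members was -0.020, and Camk2b was at -0.016, Camk2g at -0.011 and Camk4 at -0.025. Controls 3 and 4 each stood alone in their block, so these estimates rested on the libraries numbered 1 and 2. This fit is thus not separate from that without controls 3 and 4 together, which compared the same libraries, and it adjusts for no known batch. Of the single member estimates under the alternatives, 16 reversed and 144 kept their sign and their side of the threshold. DESeq2, limma, scaling by RLE or total counts, both filters and the robust fit reversed no sign among the members. Prior counts of 0.5 and 5, run for the median difference from each control alone, turned none of those medians. The cause of these shifts was not tested.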

Other observations

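The voltage-gated calcium channels varied among the controls as well, with a median ratio of the highest to the lowest control of 2.07. Among the 15 voltage-gated calcium channel genes, 11 had positive estimates and the median log2 fold change was 0.18. Against controls 1 to 4 in turn, however, the median was 0.30, 0.18, -0.34 and 0.72. With edgeR 0 passed, beside 0.152% of all genes, and 2 had an unadjusted p under 0.05, beside 13.0%. With DESeq2 0 passed, beside 2.97% of all genes, and with limma 0. Cacna1c, which encodes an L-type channel, had 64.4, 62.3, 98.2 and 47.3 CPM in the controls, and 90.9 and 85.8 CPM in the libraries labelled Foxp1cKO, so that control 3 alone kept the groups from separating, as for Camk2d. Cacna1b, which encodes an N-type channel, had 59.3, 63.3, 112 and 41.8 CPM in the controls, and 86.4 and 77.7 CPM in the libraries labelled Foxp1cKO. The 12 genes of intracellular calcium stores had a median of -0.010, with Itpr1 at 0.16 (SE 0.19) and Ryr2 at 0.39 (SE 0.43).

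The 13 other kinases of the CaMK group had a median of -0.047. With edgeR 0 passed, beside 0.152% of all genes, and 0 had an unadjusted p under 0.05, beside 13.0%. With DESeq2 0 passed, beside 2.97% of all genes, and with limma 0. Camk1g, which encodes CaMKI gamma, had 18.3, 23.1, 28.9 and 10.3 CPM in the controls, and 17.2 and 18.7 CPM in the libraries labelled Foxp1cKO. Pnck, which encodes CaMKI beta, had 16.4, 18.2, 22.4 and 11.1 CPM in the controls, and 13.9 and 14.4 CPM under the Foxp1cKO label. In both, control 3 was highest and control 4 lowest, and the Foxp1cKO libraries lay inside the controls. Dclk1, a doublecortin-like kinase of young neurons, had 274, 388, 451 and 238 CPM in the controls, with the same controls at the ends, and 357 and 335 CPM under the Foxp1cKO label.

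The remaining lists had small medians. The log2 median was -0.11 over 6 genes of inhibitors, scaffolds and phosphatases, -0.062 over 8 calmodulin-binding buffers, 0.12 over 16 target factors and -0.078 over 9 genes of AMPK and LKB1, beside -0.0044 over all genes. Of the other markers, radial glia markers summed to between 2574 and 3147 CPM in the controls, and to 3040 and 2935 CPM in the libraries labelled Foxp1cKO, which lay inside that range. Intermediate progenitor markers summed to between 722 and 966 CPM in the controls, with 678 and 774 CPM under the Foxp1cKO label, and Cajal-Retzius markers to between 377 and 470 CPM, with 447 and 566 CPM. For endothelium the sums were 134 to 206 CPM in the controls and 189 and 233 CPM in the libraries labelled Foxp1cKO, for microglia 16.5 to 25.2 and 23.2 and 23.6 CPM, and for meninges and mesenchyme 92.7 to 562 and 150 and 340 CPM. Of the markers analysed here, 0 were at 0 CPM in any library. Their part in the values of the CaM kinases was not tested.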
